A study of Mus musculus with 4 samples.

Results

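Steady-state levels of 8 erythroid genes were measured in the cortex of *Qk* cKO and control mouse embryos. The genes were found by their symbols among the 23038 genes of the deposited expression files, which hold all 8 of them, and they are *Hba-x*, *Hba-a1*, *Hbb-y*, *Hbb-bh1*, *Hbb-b1*, *Alas2*, *Slc4a1* and *Hemgn*. Each of the 8 was among the 18834 genes for which some sample held a tag, a tag being the unit of reads that Quantas counts. These genes were selected on measured values, the tags and RPKM of these same 4 samples having been known when they were proposed, so their levels are a description, and calls among them are counted below only beside the share of all genes, with nothing read from them. RPKM is the number of tags scaled by exon length and by the total number of tags in the sample. They make up the globin chains of haemoglobin and proteins of its haem, of the red cell membrane and of the red cell nucleus.

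Messenger RNA came from the E14.5 embryonic cortex of 2 control embryos (*Qk* fl/fl, named wild type in the labels) and 2 *Qk* cKO embryos (*Nestin*-Cre; *Qk* fl/fl). Both groups thus carry the floxed *Qk* allele, and only the *Qk* cKO carries Cre. The *Nestin* promoter directs Cre to neural progenitor cells, and whether *Qk* was deleted in the red cells of these embryos was not measured. The samples were described as independent replicates and littermates, so p-values measure only the spread between these 4 embryos. The samples held between 37942046 and 42994832 tags. *Qk* itself, whose deletion removes only part of the gene, had 21.1 and 21.7 RPKM in control and 32.5 and 34.2 RPKM in *Qk* cKO, and this whole-gene level does not check the deletion. *Xist*, the RNA of the inactive X chromosome, had 57.1 and 64.5 RPKM in replicate 1 of control and of *Qk* cKO but 0.026 and 0.0095 RPKM in replicate 2 of each, so replicates 1 and 2 differed in this marker of sex within both groups.

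Haemoglobin is the oxygen carrier of red cells and joins alpha-like with beta-like globin chains, each holding a haem. In the mouse, primitive red cells that arise in the yolk sac make the embryonic chains, and definitive red cells from the fetal liver take over at mid-gestation with the fetal and adult chains. Young red cells still carry globin mRNA, and blood left in the vessels of a dissected cortex brings this RNA into the library. In such bulk samples, fewer or more red cells and less or more RNA per red cell cannot be told apart, and the amount of blood in each dissection was not measured.

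All 8 genes had their highest level of the 4 samples in *Qk* cKO replicate 1, whereas 17.5% of all genes with a tag did. Their level there was between 1.20 and 2.92 times the mean of the other 3 samples. In *Qk* cKO replicate 2 their level was between 0.89 (*Alas2*) and 1.23 (*Hba-a1*) times the control mean, except for *Hemgn*, which had 1 tag there. The summed level of the 8 genes was 413 and 399.8 RPKM in control replicates 1 and 2, 594.9 RPKM in *Qk* cKO replicate 1 and 422 RPKM in *Qk* cKO replicate 2. The 2 *Qk* cKO embryos therefore differed from each other by more than *Qk* cKO replicate 2 differed from the controls.

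**Figure D1:**
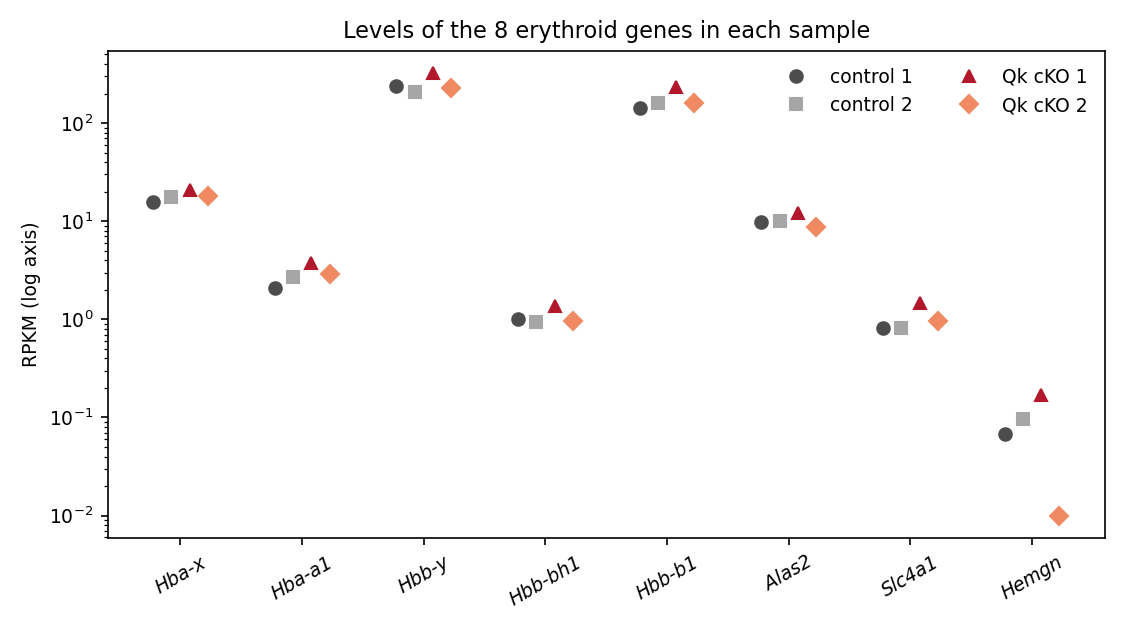
RPKM on a log axis (vertical) of the 8 erythroid genes (horizontal), with 1 point per sample (circles and squares for the 2 control samples, triangles and diamonds for the 2 *Qk* cKO samples) and no error bars. The triangle of *Qk* cKO replicate 1 is the highest point of each gene, and the levels span from 324 RPKM for *Hbb-y* to 0.0099 RPKM for *Hemgn*.

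Among the alpha-like chains, *Hba-x* encodes the embryonic zeta chain. *Hba-x* was measured at 15.7 and 17.6 RPKM in control replicates 1 and 2 and at 20.6 and 18.3 RPKM in *Qk* cKO replicates 1 and 2. Both *Qk* cKO samples lay above both controls, by a narrow margin in replicate 2. The log2 fold change of *Hba-x* between *Qk* cKO and control, from the edgeR fit across all genes, was 0.24 with a standard error (SE) of 0.13. The gene lies on chromosome 11 (mm10, chr11:32276400-32278116, plus strand) upstream of *Hba-a1*, *Hbq1b* and *Hba-a2*.

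*Hba-a1* encodes the alpha chain of fetal and adult haemoglobin. The row held 23 and 27 tags in control replicates 1 and 2, against 43 and 32 in *Qk* cKO, or 2.09, 2.68, 3.76 and 2.93 RPKM. The groups did not overlap, but the log2 fold change of 0.51 had an SE of 0.43. These few tags are uncertain as a measure of *Hba-a1*, because *Hba-a2*, which encodes the same kind of chain, had 8195 and 7857 tags in the controls, compared with 10476 and 8089 in *Qk* cKO. The tags of *Hba-a2* were thus between 243.6 and 356.3 times those of *Hba-a1*. Coding sequences of this pair differ by 1 of 426 bases in the annotation, and 266 of the 550 windows of 150 nt (the read length) in the *Hba-a1* transcript also occur in *Hba-a2*. The difference is C381T, counted from 1 at the start of the coding sequence with the base of *Hba-a1* first, in the last base of codon 127 in exon 3. The lines below show it in capitals with 15 bases on either side, from the plus strand of mm10, at chr11:32284328-32284358 for *Hba-a1* and chr11:32297145-32297175 for *Hba-a2*.
Hba-a1: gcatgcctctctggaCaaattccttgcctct
Hba-a2: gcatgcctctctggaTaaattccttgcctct

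The deposited exon length of *Hba-a1* was 266 nt, or 38.1% of the 699 nt of exon in its annotated coding transcripts, while that of *Hba-a2* was 993 nt. How the authors' counting divided fragments between both copies bears on the *Hba-a1* value. *Hba-a2* itself was measured at 199.2 and 208.5 RPKM in control and at 245.4 and 198.3 RPKM in *Qk* cKO, with a log2 fold change of 0.14 (SE 0.077), and *Qk* cKO replicate 2 was the lowest of the 4 samples.

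The embryonic beta-like chains are encoded by *Hbb-y* (epsilon y) and *Hbb-bh1* (beta h1), which lie in the beta-globin cluster of chromosome 7 (mm10, chr7:103851749-103853216 and chr7:103841637-103843164, both on the minus strand). *Hbb-y* was the most abundant of the 8 genes, with 241.0 and 207.8 RPKM in control replicates 1 and 2 and 324.3 and 228.6 RPKM in *Qk* cKO replicates 1 and 2. Its level in *Qk* cKO replicate 2 fell between the controls, and the groups overlapped. Its log2 fold change was 0.32 (SE 0.10), and it was 0.03 without *Qk* cKO replicate 1.

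*Hbb-bh1* was far less abundant than *Hbb-y*. The controls held 40 and 34 tags of it, against 57 and 38 in *Qk* cKO, or 1.01, 0.933, 1.38 and 0.964 RPKM. Apart from *Qk* cKO replicate 1, the samples lay within 0.933 and 1.01 RPKM. The log2 fold change was 0.29 with an SE of 0.37. The ratio of *Hbb-y* to *Hbb-bh1* tags was between 143.6 and 154.5 in the 4 samples. With so few *Hbb-bh1* tags, this ratio is too imprecise to show whether both chains kept the same proportion. Their coding sequences are 76.4% identical over 441 bases and their transcripts share no window of 150 nt.

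*Hbb-b1* encodes an adult beta chain. Its level was 142.5 and 159.9 RPKM in control replicates 1 and 2 and 231.0 and 161.4 RPKM in *Qk* cKO replicates 1 and 2. Both *Qk* cKO samples lay above both controls, but replicate 2 was nearly level with the higher control. The log2 fold change was 0.39 (SE 0.11), and 0.09 without *Qk* cKO replicate 1.

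The files hold 3 rows of adult beta chains, since *Hbb-b2* and *Hbb-bs* (listed as *Beta-s*) stand beside *Hbb-b1*. *Hbb-bs* had 338.6 and 374.1 RPKM in control and 556.8 and 409.8 RPKM in *Qk* cKO, the highest level of any globin row. *Hbb-b2* had 159.4 and 175.0 RPKM in control and 266.2 and 179.0 RPKM in *Qk* cKO. *Hbb-bs* had between 4.05 and 4.40 times the tags of *Hbb-b1*, and *Hbb-b1* had between 1.23 and 1.29 times the tags of *Hbb-b2*. On the mm10 chromosome the annotation places *Hbb-bs* (chr7:103826534-103828096, minus strand) and *Hbb-bt*, which differ by 1 of 441 coding bases, and it names no *Hbb-b1* or *Hbb-b2* there. The 3 rows may hold tags of the same transcripts, so neither a difference between them nor their proportions can be read as one between genes.

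*Hbb-bs*, no member of the 8 genes, was called higher in *Qk* cKO by edgeR's quasi-likelihood test (p below 0.01 and FDR below 0.1 over all genes), with a log2 fold change of 0.45 (SE 0.099) and a Benjamini-Hochberg FDR of 0.062. This call ended in DESeq2 (FDR 0.581), with edgeR's filterByExpr (FDR 0.374), without control replicate 1 (FDR 0.658), without control replicate 2 (FDR 0.920) and without *Qk* cKO replicate 1, where the log2 fold change was 0.20 (FDR 0.336). The call was kept with RLE scaling (FDR 0.065), upper-quartile scaling (FDR 0.037), haemoglobin chains out of the library size (FDR 0.062) and the replicate block (FDR 0.0035), and without *Qk* cKO replicate 2 (FDR 2.0e-06).

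**Figure D2:**
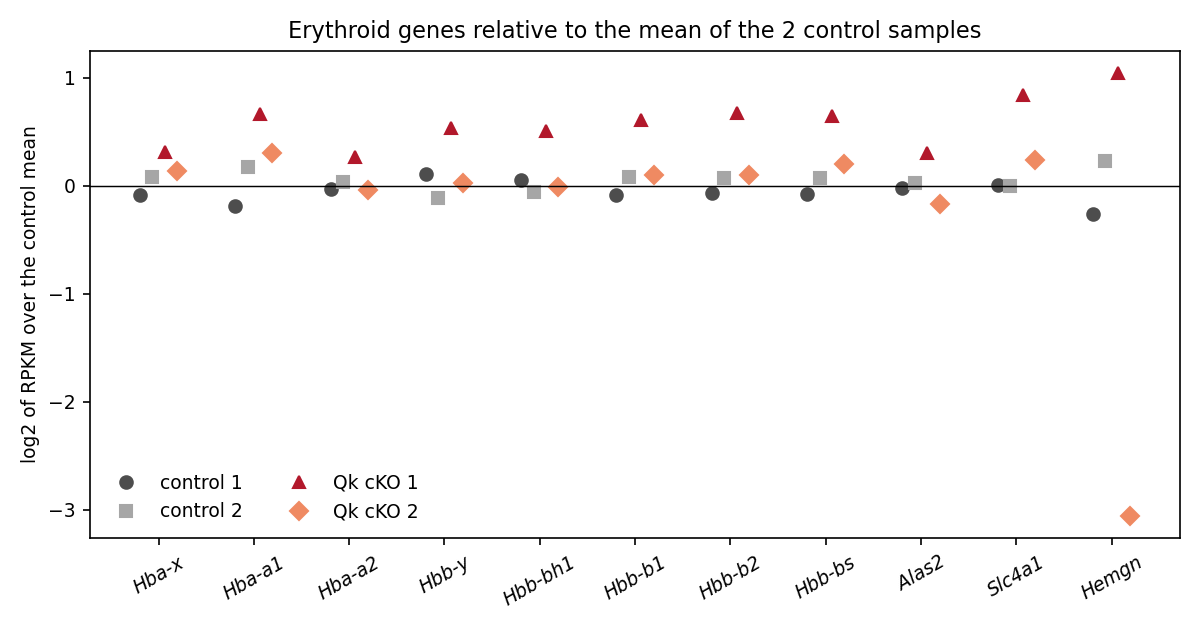
Log2 ratio of the RPKM in each sample to the mean of the 2 control samples (vertical, 0 at the control mean) for the 8 erythroid genes and for *Hba-a2*, *Hbb-b2* and *Hbb-bs* (horizontal), with 1 point per sample and no error bars. *Qk* cKO replicate 1 is the highest point of every gene. *Qk* cKO replicate 2 lies nearer to the control mean than replicate 1 does, except for *Hemgn*, which had 1 tag there.

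*Alas2* encodes the erythroid 5-aminolevulinate synthase, which starts haem synthesis in red cell precursors. Its level was 9.77 and 10.04 RPKM in control replicates 1 and 2 and 12.2 and 8.81 RPKM in *Qk* cKO replicates 1 and 2. Both controls lay between the *Qk* cKO samples, of which replicate 1 was the highest and replicate 2 the lowest of the 4. The log2 fold change was 0.10 (SE 0.13), and its sign turned to -0.17 without *Qk* cKO replicate 1. *Alas2* lies on the X chromosome (mm10, chrX:150547375-150570638, plus strand), and the samples differ in *Xist* by replicate number as described above, whose part in the *Alas2* level was not tested. Tags of *Hba-x*, *Hba-a1*, *Hba-a2*, *Hbb-y*, *Hbb-bh1*, *Hbb-b1*, *Hbb-b2* and *Hbb-bs* together were 34.6 and 34.8 times those of *Alas2* in control and 40.1 and 41.3 times in *Qk* cKO, so this ratio was higher in both *Qk* cKO samples.

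*Slc4a1* encodes band 3, the anion exchanger of the red cell membrane (mm10, chr11:102348824-102366203, minus strand). It was measured at 0.814 and 0.808 RPKM in control replicates 1 and 2 and at 1.45 and 0.954 RPKM in *Qk* cKO replicates 1 and 2. The controls were nearly equal and both *Qk* cKO samples lay above them. With a log2 fold change of 0.58 (SE 0.20), *Slc4a1* had the largest difference between the groups of the 8 genes, and without *Qk* cKO replicate 1 it was 0.23.

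*Hemgn* encodes hemogen, a nuclear protein of red cell precursors (mm10, chr4:46393989-46413506, minus strand). The controls held 7 and 9 tags of it, against 18 in *Qk* cKO replicate 1 and 1 in *Qk* cKO replicate 2, or 0.069, 0.096, 0.170 and 0.0099 RPKM. At this depth no difference between the groups was detectable, and the log2 fold change of 0.16 had an SE of 1.002. *Hemgn* was the only one of the 8 genes with fewer than 20 tags in every sample.

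In control, the order of the levels per exon length was *Hbb-y* (224 ± 23.5 RPKM, SD, n = 2), *Hbb-b1* (151 ± 12.2 RPKM), *Hba-x* (16.6 ± 1.36 RPKM), *Alas2* (9.91 ± 0.19 RPKM), *Hba-a1* (2.38 ± 0.42 RPKM), *Hbb-bh1* (0.970 ± 0.051 RPKM), *Slc4a1* (0.811 ± 0.0043 RPKM) and *Hemgn* (0.083 ± 0.020 RPKM). In *Qk* cKO the means were 276 ± 67.6 RPKM for *Hbb-y*, 196 ± 49.2 RPKM for *Hbb-b1*, 19.4 ± 1.67 RPKM for *Hba-x*, 10.5 ± 2.41 RPKM for *Alas2* and 3.34 ± 0.59 RPKM for *Hba-a1*. They were 1.17 ± 0.30 RPKM for *Hbb-bh1*, 1.20 ± 0.35 RPKM for *Slc4a1* and 0.090 ± 0.113 RPKM for *Hemgn*. The order was the same in each of the 4 samples except for *Hbb-bh1* and *Slc4a1*, which changed places in *Qk* cKO replicate 1. This order holds only for the deposited exon lengths. They were 156.6% of the annotated exon for *Hbb-bh1*, 100.5% for *Slc4a1* and 64.0% for *Hba-x*. In each of the 8 genes the SD between the *Qk* cKO samples was larger than that between the controls.

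Between the groups, the median log2 fold change of the 8 genes was 0.30, compared with -0.0025 over all genes tested. None of the 8 was called by edgeR, where 0.584% of all genes were called (39 genes or 0.207% higher and 71 genes or 0.377% lower in *Qk* cKO), and 3 of the 8 had an unadjusted p below 0.05, where 8.76% of all genes did. DESeq2, which called 0.43% of all genes, called none of the 8 and gave an unadjusted p below 0.05 for 1, where 5.36% of all genes had one. Both *Qk* cKO samples lay above both controls in 4 of the 8, *Hba-x*, *Hba-a1*, *Hbb-b1* and *Slc4a1*, compared with 16.3% of all genes. Since the genes were chosen with these values in view, nothing is read from these counts.

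Leaving out *Qk* cKO replicate 1 lowered the median log2 fold change to 0.06, with 5 of the 8 above 0 (with all samples, 8 of the 8 and 49.5% of all genes were above 0). Leaving out *Qk* cKO replicate 2 raised it to 0.59, with all 8 above 0. None of the 8 was called higher by edgeR in the former case, where 1.01% of all genes were, and 3 in the latter, where 0.097% were. Without *Qk* cKO replicate 1, *Hba-a1* (0.30), *Slc4a1* (0.23) and *Hba-x* (0.14) kept the highest log2 fold changes of the 8.

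The 8 abundant or embryonic haemoglobin rows in the files (*Hba-x*, *Hba-a1*, *Hba-a2*, *Hbb-y*, *Hbb-bh1*, *Hbb-b1*, *Hbb-b2* and *Hbb-bs*, without the theta-like *Hbq1a* and *Hbq1b*, which had at most 14 tags in a sample) made up 0.0668% of all tags in control replicate 1 (95% Wilson interval 0.0661% to 0.0676%), 0.0692% in control replicate 2 (0.0683% to 0.0700%), 0.0970% in *Qk* cKO replicate 1 (0.0960% to 0.0979%) and 0.0719% in *Qk* cKO replicate 2 (0.0711% to 0.0728%). Since the 3 adult beta rows may count the same tags more than once, these sums, the ratio of alpha-like to beta-like tags and the embryonic share of beta-like tags hold only for the rows as deposited. Relative to the mean of the controls, *Qk* cKO replicate 1 had 1.43 times and *Qk* cKO replicate 2 had 1.06 times as large a share. The intervals of both *Qk* cKO samples lay above those of both controls, but they cover counting error only and not the variation between embryos.

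The alpha-like and beta-like chains did not differ by the same factor. Alpha-like tags were 0.451 and 0.461 times the beta-like tags in control replicates 1 and 2, and 0.361 and 0.409 times in *Qk* cKO replicates 1 and 2. Both *Qk* cKO samples were below both controls in this ratio. With 2 samples per group, the smallest p of a two-sided exact permutation test is 0.333, so no such test could pass a threshold.

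The share of embryonic chains was calculated in order to compare the makeup of the red cell RNA apart from its amount. *Hba-x* made up 4.52% of alpha-like tags in control replicate 1 (95% Wilson interval 4.10% to 4.98%), 4.83% in control replicate 2 (4.39% to 5.31%), 4.81% in *Qk* cKO replicate 1 (4.43% to 5.23%) and 5.25% in *Qk* cKO replicate 2 (4.80% to 5.74%). The groups overlapped, with 4.67% ± 0.22 (SD, n = 2) in control and 5.03% ± 0.31 in *Qk* cKO. The 4 intervals overlapped. By RPKM, which scales for the unlike exon lengths of the rows, the shares were 7.21%, 7.68%, 7.64% and 8.32% in the same order of samples.

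*Hbb-y* and *Hbb-bh1* together made up 32.6% of beta-like tags in control replicate 1 (31.9% to 33.3%), 27.4% in control replicate 2 (26.7% to 28.0%), 28.4% in *Qk* cKO replicate 1 (27.9% to 28.9%) and 27.9% in *Qk* cKO replicate 2 (27.3% to 28.5%). Control replicate 1 stood above the other 3 samples, which were within 1 percentage point of each other, and *Qk* cKO replicate 1 did not stand apart. The means were 29.98% ± 3.69 in control and 28.1% ± 0.32 in *Qk* cKO, a difference smaller than the SD of the controls. When the adult beta chain was taken from the *Hbb-bs* row alone, an alternative chosen after seeing the data, the shares were 41.0%, 35.1%, 36.2% and 35.2% in the same order of samples. By RPKM over all beta-like rows, they were 27.4%, 22.7%, 23.6% and 23.4% in that order.

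**Figure D3:**
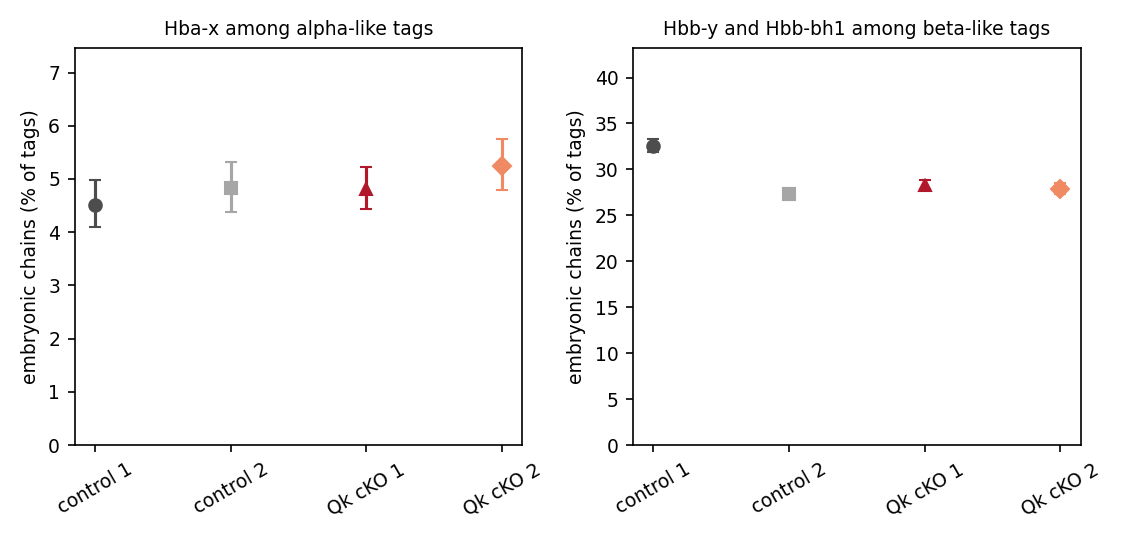
Share of tags (percent, vertical axes from 0) from the embryonic chains in each of the 4 samples, for *Hba-x* among alpha-like chains (left) and for *Hbb-y* and *Hbb-bh1* among beta-like chains (right), with bars for the 95% Wilson intervals. The alpha-like shares lie between 4.52% and 5.25%, and among the beta-like shares control replicate 1 (32.6%) stands above the other 3 (27.4% to 28.4%).

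Splicing of the 8 genes is a readout that did not serve to choose them. The deposited alternative splicing events include an alternative 3' splice site in *Alas2* and in *Slc4a1*, and a cassette exon in *Slc4a1*. In *Alas2*, exon 3 begins at either of 2 acceptors, and the upstream one adds 45 nt, or 15 codons, at chrX:150552959-150553003 (mm10, plus strand), so that the exon is 123 or 78 nt long. The whole stretch is coding in the annotation. It is shown in capitals, between the last 12 bases of exon 2 and the next 12 bases of exon 3.
Alas2 exon 3: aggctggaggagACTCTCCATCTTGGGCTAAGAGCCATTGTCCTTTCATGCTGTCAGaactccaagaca

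Of the tags on both junctions, 12% skipped the 45 nt in control replicate 1 (95% Wilson interval 4.17% to 29.96%), 6.34% in control replicate 2 (2.20% to 17.2%), 14.7% in *Qk* cKO replicate 1 (7.96% to 25.7%) and 16.8% in *Qk* cKO replicate 2 (7.60% to 34.6%). Both *Qk* cKO samples lay above both controls, but all 4 intervals overlapped. Summed per group, the share was 8.30% in control and 15.4% in *Qk* cKO.

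The coverage of this event was 19.8, below the minimum of 20, so it was not tested with the limit used here. With a minimum of 10, Fisher's exact test gave p = 0.244 (two-sided) and an FDR of 0.637 over 3560 events, of which 191 were called. A difference in this splice site was therefore not detectable at this depth. In *Slc4a1*, between 5 and 9 junction tags per sample used 1 of the 2 splice sites and none used the other. Its cassette exon event had a coverage of 1, and neither event of *Slc4a1* was tested.

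**Figure D4:**
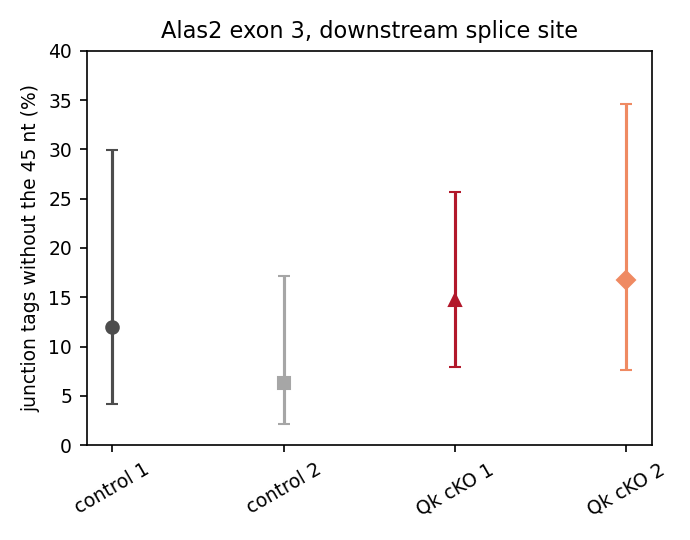
Share of *Alas2* junction tags (percent, vertical axis from 0) that use the downstream splice site of exon 3 and so leave out 45 nt, in each of the 4 samples, with bars for the 95% Wilson intervals. The shares lie between 6.34% and 16.8%, and all intervals overlap.

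As a description of the reference sequence, which has no bearing on differences between these samples, the promoters were searched for motifs of 2 kinds of factors of red cell precursors, GATAA (the core motif of GATA factors) and CACCC (the core motif of Klf factors), on both strands. RefSeq entries on GRCm38.p6 were matched for 5 of the 8 genes, *Hba-x*, *Hba-a1*, *Hbb-y*, *Alas2* and *Hemgn*. In the 250 bases before the start of the RefSeq entry, GATAA was present in 5 of these 5 and in 22.5% of 32536 promoter windows of the same length, and CACCC in 4 of the 5 (not in *Hemgn*) and in 52.1% of all windows. These starts differ from the GENCODE gene positions given above. The whole *Hemgn* window (chr4:46404184-46404433, minus strand) and most of the *Hba-x* and *Hba-a1* windows lie inside the GENCODE gene. The upstream ends of 3 windows are shown as examples of an alpha, a beta-like and a haem synthesis gene, each up to the first annotated base of the gene in GENCODE, 5' to 3' on the strand of the gene, with both motifs in capitals (TTATC is GATAA on the other strand). They lie at chr11:32283422-32283510 (plus strand) for *Hba-a1*, chr7:103853217-103853457 (minus strand) for *Hbb-y* and chrX:150547167-150547374 (plus strand) for *Alas2*.
Hba-a1: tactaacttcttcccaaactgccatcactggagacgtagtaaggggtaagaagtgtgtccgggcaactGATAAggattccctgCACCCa
Hbb-y: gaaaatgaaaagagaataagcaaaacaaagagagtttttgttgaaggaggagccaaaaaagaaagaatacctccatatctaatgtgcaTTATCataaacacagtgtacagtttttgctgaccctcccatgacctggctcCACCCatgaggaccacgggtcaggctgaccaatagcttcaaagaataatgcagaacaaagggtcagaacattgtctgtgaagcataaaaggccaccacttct
Alas2: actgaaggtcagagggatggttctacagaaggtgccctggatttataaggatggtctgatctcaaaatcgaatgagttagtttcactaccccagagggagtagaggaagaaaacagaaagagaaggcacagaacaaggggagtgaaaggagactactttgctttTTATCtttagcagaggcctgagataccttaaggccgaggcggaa

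These matches describe the letters in the windows and do not show that a factor binds there. Beyond the sequence shown and closer to the start, the *Alas2* window holds 3 CACCC matches and the *Hba-a1* window holds 1 more.

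Other genes of red cells were taken from 7 lists of haemoglobin chains, non-erythroid globins, haem synthesis, iron handling, red cell membrane, red cell enzymes and erythroid regulators. Of their 76 genes in the files 74 had a tag, and *Hbb-bs* was the only one called, 1 of 74 compared with 0.207% of all genes called higher. At an unadjusted p below 0.05 there were 12 of the 74 in edgeR, 11 of them higher in *Qk* cKO (8.76% of all genes in either direction), and 7 in DESeq2 (5.36% of all genes), which called none. The median log2 fold change of the 74 was 0.01. In 15 of them the highest level was in *Qk* cKO replicate 1 (17.5% of all genes), and in 17 of the 76 the mean was under 20 tags.

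Haem synthesis genes are used by all cells, and 0 of the 11 beside *Alas2* were called by edgeR or DESeq2, with 0 at an unadjusted p below 0.05. The most abundant were *Tmem14c*, a carrier of haem precursors in mitochondria, at 62.5 and 58.9 RPKM in control and 62.5 and 54.2 RPKM in *Qk* cKO, and *Urod*, uroporphyrinogen decarboxylase, at 30.8, 32.9, 32.5 and 31.3 RPKM. The summed level of the list in *Qk* cKO replicate 1 was 1.005 times the control mean, unlike that of *Alas2* at 1.23 times.

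Of 12 iron handling genes 0 were called by either tool. At an unadjusted p below 0.05 there were 4 in edgeR (8.76% of all genes), all higher in *Qk* cKO, and 3 in DESeq2 (5.36%). The ferritin chains led this list, with *Ftl1* at 848 and 860 RPKM in control and 819 and 761 RPKM in *Qk* cKO and *Fth1* at 215, 227, 206 and 216 RPKM. Neither was called, with log2 fold changes of -0.10 (SE 0.079) and -0.06 (SE 0.064).

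Among 17 genes of the red cell membrane, 0 were called by either tool. At an unadjusted p below 0.05 there were 2 in edgeR (8.76% of all genes) and 1 in DESeq2 (5.36%). The most abundant, *Add2* (60.1, 61.5, 56.6 and 56.3 RPKM) and *Epb41* (24.1, 24.2, 23.9 and 24.6 RPKM), encode cytoskeletal proteins that neurons also express. *Kel*, a blood group antigen named after its values were seen, had 7 and 5 tags in the controls, compared with 20 and 46 in *Qk* cKO, with the highest number in replicate 2. Its log2 fold change was 2.38 (SE 0.66), with an edgeR FDR of 0.179, above the limit of 0.1. The authors listed *Kel* among the transcripts whose level changed in *Qk* cKO.

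Among 8 red cell enzymes with a tag, 0 were called by either tool and 0 had an unadjusted p below 0.05. *Prdx2* (725, 683, 734 and 624 RPKM) and *Gpx1* (59.7, 57.0, 56.2 and 52.0 RPKM), which remove peroxides, were the most abundant. Of 18 erythroid regulators 0 were called. At an unadjusted p below 0.05 there were 4 in edgeR (8.76% of all genes), 3 of them higher in *Qk* cKO, and 3 in DESeq2 (5.36%). *Ldb1* (160, 166, 164 and 162 RPKM) and *Kit* (20.03, 18.8, 21.2 and 22.9 RPKM) were the most abundant, and both also act outside blood. The defining factors of red cell precursors were near the limit of detection. *Gata1* had 7 and 4 tags in the controls, compared with 10 and 2 in *Qk* cKO, and *Klf1* had 10, 17, 18 and 17 tags, both named after their values were seen.

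The non-erythroid globins *Cygb* (6.21, 5.97, 4.55 and 5.90 RPKM) and *Ngb* (0.549, 0.567, 0.371 and 0.239 RPKM), which encode cytoglobin of connective tissue cells and neuroglobin, were lower in both *Qk* cKO samples than in both controls, but neither was called. None of the 3 genes of this list had an unadjusted p below 0.05.

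Markers of other cells that a dissected cortex could hold were compared in the same samples. Of 77 markers in 8 lists 0 were called by either tool (0.584% of all genes in edgeR and 0.43% in DESeq2). At an unadjusted p below 0.05 there were 10 in edgeR, 7 of them higher in *Qk* cKO (8.76% of all genes in either direction), and 1 in DESeq2 (5.36%). Platelet markers summed to 25.9 and 27.0 RPKM in control and to 23.4 and 23.0 RPKM in *Qk* cKO. *Gp1bb* made up most of this sum with 16.2, 17.1, 14.99 and 14.2 RPKM. Leukocyte and microglia markers, led by *Tyrobp* at 15.3, 14.7, 13.8 and 17.1 RPKM, summed to 62.7, 67.6, 59.9 and 67.9 RPKM. Neither of these sums was highest in *Qk* cKO replicate 1. Of the 10 platelet markers, however, 6 had a mean under 20 tags, so their sum hardly reflects them. *Qk* cKO replicate 1 was the highest sample for 3 of the 10 platelet markers and 3 of the 13 leukocyte and microglia markers (17.5% of all genes).

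Granulocyte markers summed to 3.83, 4.72, 4.08 and 4.58 RPKM, and *Prtn3*, their highest, had 3.39, 3.37, 2.86 and 2.61 RPKM. The other 7 of these 8 genes had a mean under 20 tags, 4 of the 8 were highest in *Qk* cKO replicate 1, and the median log2 fold change of the list was 0.60. Endothelial markers summed to 127.3, 122.6, 114.4 and 127.4 RPKM, led by *Kdr* at 17.4, 16.0, 16.1 and 20.2 RPKM. Pericyte markers summed to 77.8, 85.8, 77.4 and 82.8 RPKM, led by *Vtn* at 30.1, 31.5, 29.9 and 30.7 RPKM. Both sums were lower in *Qk* cKO replicate 1 than in either control, while single markers such as *Kdr* lay between the controls.

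Meningeal and mesenchymal markers, led by *Col3a1* (55.4, 49.4, 54.9 and 65.3 RPKM), summed to 146.6 and 132.5 RPKM in control and to 132.0 and 194.1 RPKM in *Qk* cKO, so that replicate 2 of *Qk* cKO and not replicate 1 was the highest. Choroid plexus markers, of which *Ttr* had 758, 609, 561 and 779 RPKM, summed to 782, 631, 579 and 807 RPKM. Cortical markers, led by *Neurod6* at 166, 138, 143 and 167 RPKM, summed to 402, 352, 361 and 408 RPKM. *Qk* cKO replicate 1 had the lowest choroid plexus sum and *Qk* cKO replicate 2 the highest meningeal sum, and the part of the dissection in the erythroid levels was not tested.

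**Figure D5:**
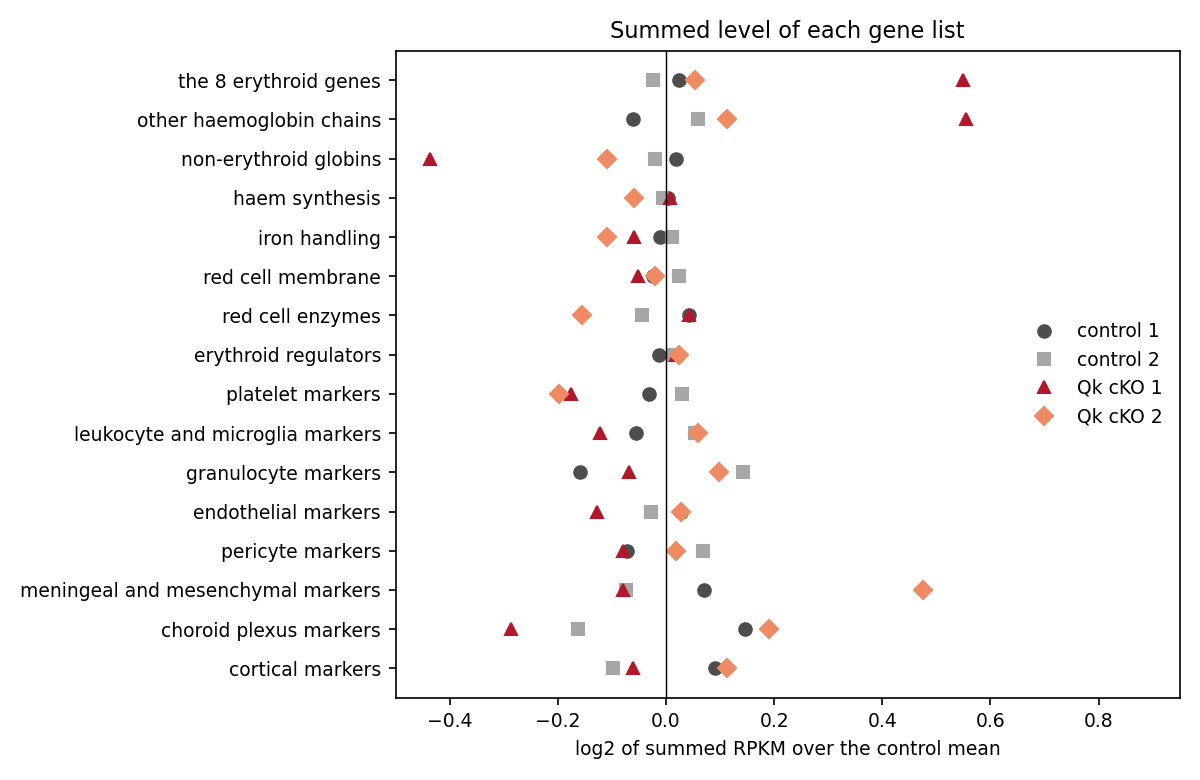
Log2 ratio of the summed RPKM in each sample to the mean of the 2 control samples (horizontal, 0 at the control mean) for the 8 erythroid genes and for each list of genes (vertical), with 1 point per sample and no error bars. The triangles of *Qk* cKO replicate 1 stand apart to the right for the 8 erythroid genes and the other haemoglobin chains, and the diamond of *Qk* cKO replicate 2 for the meningeal and mesenchymal markers.

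Genes outside these lists were ranked by how closely their levels over the 4 samples followed the mean profile of the 7 genes with at least 20 tags in mean. The measure was the root mean square distance of log2 (RPKM + 0.01) values centred on each gene's mean. Of 14511 candidates the 10 closest were *2010107G12Rik*, *Ggt1*, *Zfp329*, *3110057O12Rik*, *Fndc1*, *Calhm2*, *Cntn4*, *Six4*, *Sytl4* and *Ndufa4l2*, at distances from 0.042 to 0.078. The median distance over all candidates was 0.25, and a gene with equal levels in all samples would lie at 0.22. The 10 were picked as the closest, so lying below these values was fixed in advance. *2010107G12Rik* and *Calhm2* had means of only 20 and 26.75 tags. *Ggt1*, for example, had 0.611 and 0.593 RPKM in control and 0.818 and 0.651 RPKM in *Qk* cKO. Over 4 samples many profiles are alike by their form alone, and 31 candidates lay closer than 0.1. The 7 genes that form the profile were themselves not all close to it. *Hbb-b1* lay at 0.0497, *Hbb-bh1* at 0.0702 and *Hbb-y* at 0.0989. Farther away lay *Hba-x* at 0.1131, *Slc4a1* at 0.1235, *Alas2* at 0.1242 and *Hba-a1* at 0.1407. Among rows outside the profile, *Hbb-b2* lay at 0.0630, *Hbb-bs* at 0.0631, *Hba-a2* at 0.1121 and *Hemgn* at 1.079.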

How the data were processed

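Poly-A selected RNA of 4 E14.5 cortices (2 control, 2 *Qk* cKO, grouped by the sample titles) was sequenced as paired reads. The authors aligned the reads to mm10 with OLego and quantified them with Quantas, and they deposited estimated counts of tags per gene, which need not be whole, the RPKM of each gene, and estimated counts of tags per splicing event. Versions of these tools are not given in the sources used here. The division of fragments between near-identical globin genes is part of these values.

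Tags were rounded and compared by the quasi-likelihood F test (edgeR 4.0.16, R 4.3.3, TMM scaling) over genes for which some sample held a tag, with thresholds of p below 0.01 and FDR below 0.1. Splicing events with a coverage of at least 20 were compared with Fisher's exact test on tags summed per group. DESeq2 1.42.0, RLE and upper-quartile scaling, filterByExpr, a replicate block, library sizes without haemoglobin chains and each sample left out were the alternatives. In simulated data on 18594 genes, edgeR recovered 84 of 87 genes changed 2-fold and 113 of 113 changed 4-fold, with 5 false calls. DESeq2 recovered 82 of 87 and 113 of 113, with 18 false calls. The changed genes were drawn from the more abundant ones, and the same dispersion was used for all genes. This recovery therefore does not bear on smaller changes or on genes with few tags.

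The 8 genes and all lists were chosen with earlier results of these data known. Besides the 8 genes, the genes named are those called in each list, the 2 with the highest mean RPKM in each erythroid list, the highest in each marker list, and the 10 most alike. *Kel*, *Gata1*, *Klf1*, *Hbb-b2*, *Hbq1a* and *Hbq1b* were named outside this rule, after their values were seen. Of 79 genes in the erythroid lists 76 were found, 6 of them by gene ID, and the rest were not analysed here. The values of 1 list gene are not reported here. Promoters came from RefSeq (GRCm38.p6) and gene positions from GENCODE M21, counted from 1. Wilson intervals cover counting error only, since PCR copies were not told apart.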

Additional observations from a re-analysis of the deposited data

How the results depend on the processing

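Log2 fold changes of the 8 genes moved by less than the SD between replicates in 47 of 47 comparisons with other tests, scalings, filters and the replicate block and stayed above 0 in 46, all but *Hemgn* with the replicate block (-0.21); *Hemgn* was not kept by filterByExpr. With 1 sample left out they ranged from 0.14 to 0.34 for *Hba-x*, 0.30 to 0.69 for *Hba-a1*, 0.026 to 0.55 for *Hbb-y*, -0.0101 to 0.53 for *Hbb-bh1*, 0.094 to 0.64 for *Hbb-b1*, -0.17 to 0.33 for *Alas2*, 0.23 to 0.86 for *Slc4a1* and -2.90 to 1.06 for *Hemgn*.

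Of all genes, 110 were called, 11 with filterByExpr, 192 with the replicate block and 0 to 428 with 1 sample left out, when the lone sample was assumed to vary like the other group. None of the 8 genes was called, except 2 with the replicate block (*Hbb-y* and *Hbb-b1*) and 0 to 3 with 1 sample left out (3 without *Qk* cKO replicate 2). In the erythroid lists 1 gene was called, 0 with DESeq2, 0 with filterByExpr, 2 with the replicate block and 0 to 4 with 1 sample left out, and in the marker lists 0, or 0 to 6 with 1 sample left out. The cause of these changes was not tested.

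The deviations of control replicate 1 and of *Qk* cKO replicate 1 from their group means correlated at 0.30 over 12928 genes. Over the 12442 of these genes on autosomes the correlation was -0.081, so the numbers were not taken to pair the embryos. The difference in embryonic share between *Qk* cKO and control was -1.86 percentage points for beta-like tags, from -4.47 to 0.75 with 1 sample left out, and 0.36 for alpha-like tags, from 0.14 to 0.58. At a coverage of 20, junction tags alone and the Cochran-Mantel-Haenszel test with the replicate block gave no value for *Alas2*. Combined with a coverage of 10, a choice made after seeing the data, their FDR was 0.626 and 0.843. Depth limits *Hemgn*, *Hba-a1* and *Hbb-bh1* most.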
